A study of Mus musculus with 13 samples.

Results

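T cells of newborn mouse epidermis were described here from 5 single-cell libraries of back skin epidermis at P0, the day of birth. A cell counted as a T cell when at least 2 of Cd3d, Cd3e and Cd3g were detected, the 3 together held at least 3 unique molecular identifiers (UMIs, each standing for 1 captured transcript), and C1qa and C1qb, complement genes of Langerhans cells and macrophages, summed to at most 5 per 10000 UMIs. Before that, cells with fewer than 900 or more than 7700 genes, or with over 10% of their UMIs from mitochondria, were set aside. The members were thus chosen by their own Cd3 and C1q counts. The rule found 455 T cells among 34852 kept P0 cells, or 1.306%, out of 86507 kept cells in the 13 libraries of the whole series. The study asked how the interfollicular epidermis differentiates and what the transcription factor Grhl3 does in it. All mice were of the C57BL/6 strain. The WT group had 2 libraries (WT 1 and WT 2), the Grhl3-/- group had 2 libraries (Grhl3-/- 1 and Grhl3-/- 2), and 1 further WT library is titled Chromium v1. The other 4 are called v2 libraries here, although the labels give this library the same v2 extract protocol as the rest. A difference of kit is thus stated by its title and the methods, and the barcodes it shares with the others are given below. In Grhl3-/- mice the gene is lost in the germline of the whole animal, so no comparison here separates loss of Grhl3 in T cells from its loss in the keratinocytes around them. The methods describe littermates of both genotypes, skin taken at the level of the forelimbs, away from the spina bifida of the Grhl3-/- pups, an overnight Dispase step before the epidermis was peeled off, and removal of dead cells.

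T cells carry an antigen receptor whose chains reach the surface only together with the CD3 proteins, which pass the signal on to the kinases Lck and Zap70. In the mouse, the epidermis is settled around birth by gamma delta T cells that come from the fetal thymus, grow branched processes between the keratinocytes and stay there through adult life. They sit beside Langerhans cells, the antigen presenting cells of the epidermis, and are known for responses to damaged keratinocytes. The genes of the receptor chains themselves, Trdc, Trac, Trbc1 and their relatives, were not analysed here, so the values below do not say which receptor a cell carried.

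The count matrices held 49245953 to 107038146 UMIs per library. The T cells of a library summed to 421261 to 1401911 UMIs, and this sum sets the counting error of every level below. That error does not cover spread between cells or between libraries. Grhl3 reached 6.998 and 8.29 CPM (UMIs of the gene per 1e6 UMIs) in the kept cells of WT 1 and WT 2, against 2.42 and 2.81 in Grhl3-/- 1 and Grhl3-/- 2 and 6.34 in the Chromium v1 library. Its UMIs were thus lower in both Grhl3-/- libraries but not at 0, and over all T cells it had 0, 2, 0, 0 and 1 UMIs. Between 53 and 96 barcodes of kept cells were shared by each pair of the 4 v2 libraries, and no T cell barcode was shared. The Chromium v1 library shared 0 barcodes of kept cells with each of these 4. The methods name 1 male and 1 female per genotype and age, but the kept cells of each of the 5 libraries held 2152 to 5158 UMIs of the Y-linked gene Ddx3y and 0 to 8 of Xist. A library is the unit of each test, and nothing in the labels ties libraries to separate litters.

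T cells made up a small share of each library. They were 58 of 6765 kept cells in WT 1 (0.857%, exact Clopper-Pearson 95% interval 0.652 to 1.11%), 80 of 6589 in WT 2 (1.21%, 0.964 to 1.51%), 124 of 9157 in Grhl3-/- 1 (1.35%, 1.13 to 1.61%), 133 of 7283 in Grhl3-/- 2 (1.83%, 1.53 to 2.16%) and 60 of 5058 in the Chromium v1 library (1.19%, 0.906 to 1.52%). These intervals cover counting error only. Both Grhl3-/- libraries lay above the 3 WT libraries, while the interval of Grhl3-/- 1 overlapped those of WT 2 and the Chromium v1 library. The mean share was 1.59% in Grhl3-/- against 1.04% in WT, a difference of 0.554 percentage points (two-sided exact permutation test, p = 0.3333, the smallest that 2 libraries against 2 can give). The plot of T cell share by library shows each value with its interval.

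**Figure D1:**
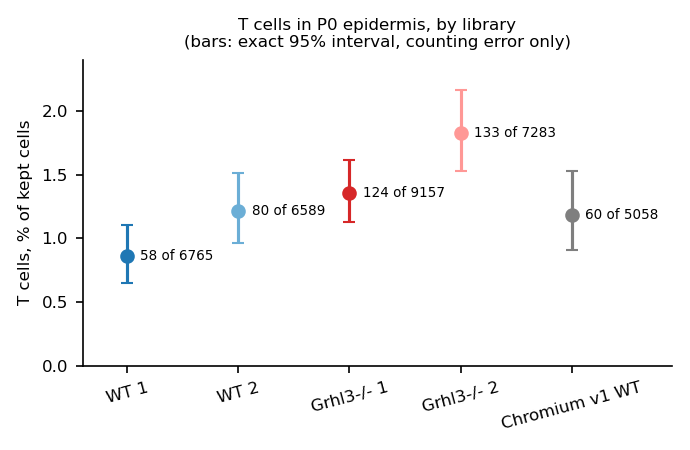
T cells as a percent of kept cells in the 5 P0 libraries; points are libraries and bars are exact 95% binomial intervals. The Grhl3-/- libraries sit at 1.35 and 1.83%, the WT libraries at 0.857, 1.21 and 1.19%.

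The rule chose cells by their Cd3 transcripts, so these levels are a description. Summed over the T cells of each library, in the order WT 1, WT 2, Grhl3-/- 1, Grhl3-/- 2 and Chromium v1 (the order of all series of 5 values below), Cd3d was at 1310, 1583, 1622, 1436 and 2433 CPM, Cd3e at 593.5, 726.2, 572.7, 545.7 and 1839 CPM and Cd3g at 1973, 3148, 3117, 2744 and 8480 CPM. All 3 genes had their highest level in the Chromium v1 library. All 3 were detected in 427 of the 455 cells, and the median cell held 28.5, 50.5, 49, 47 and 90.5 Cd3 UMIs. Just inside the limit, 4 cells had a sum of 3 UMIs, and 1 of them had a UMI of Nkg7. Just outside it, 16 cells had a sum of 2 and none of these had Nkg7. A further 50 cells outside the rule had at least 3 UMIs of Cd3g with neither other Cd3 gene, and 46 of them had Nkg7. The limit on C1qa and C1qb left out 11 cells, each with Nkg7.

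T cells were compared over the 5 libraries with 2 other classes of the same libraries. Both held no Cd3 UMI. Langerhans lineage cells (2143) had at least 2 of C1qa, C1qb and C1qc detected with at least 3 UMIs and lay above the C1q limit of the rule, and other epidermal cells (31158), largely keratinocytes, lay at or below it. UMIs were summed per library and class and tested with edgeR, a negative binomial model of counts, with each library as a block. Of 14375 genes tested against other epidermal cells, 6371 passed an adjusted p of 0.05 (44.3%), 2569 higher in T cells (17.9%) and 3802 lower (26.4%). Against Langerhans lineage cells 4340 of 9729 passed (44.6%), 2010 higher (20.7%) and 2330 lower (23.9%). The median log2 difference over all genes was -0.22 in the first comparison and -0.03 in the second. The Cd3 and C1q genes were left out of both.

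The 10 genes with the largest difference above other epidermal cells were Xcl1, Nkg7, Cd247, Ctla2b, Cd160, Ctsw, Ptprcap, Cd96, Skap1 and Cd2. Nkg7, a membrane protein of cytotoxic granules, was at 1405, 2470, 1844, 1683 and 3523 CPM in T cells, against means of 0.947 CPM in other epidermal cells and 1.21 CPM in Langerhans lineage cells. Its log2 difference from other epidermal cells was 11.20 (SE 0.18, edgeR adjusted p = 7.69e-27). Xcl1, the chemokine that draws dendritic cells bearing the receptor XCR1, was at 1460, 485.5, 1243, 1641 and 1693 CPM, with a log2 difference of 11.27 (SE 0.23, adjusted p = 5.82e-25). WT 2 was the low library for Xcl1, and no T cell library came near the other classes, which averaged 0.591 and 0.535 CPM. The start regions of both genes are shown because they lead this comparison. RefSeq gives Nkg7 on the plus strand at chr7:43436888-43437187 and Xcl1 on the minus strand at chr1:164935473-164935772 of GRCm38.p6, each window running from 250 bases before to 50 bases after the annotated start. Capitals mark the letters TGTGGT, bound by RUNX factors, and AGGAAG, a core bound by ETS factors, on either strand.
Nkg7: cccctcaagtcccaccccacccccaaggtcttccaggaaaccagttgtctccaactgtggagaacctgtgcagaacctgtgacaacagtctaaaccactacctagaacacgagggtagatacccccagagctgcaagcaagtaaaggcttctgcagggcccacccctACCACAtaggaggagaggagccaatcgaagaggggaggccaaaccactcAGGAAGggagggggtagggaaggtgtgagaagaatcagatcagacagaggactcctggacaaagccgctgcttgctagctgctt
Xcl1: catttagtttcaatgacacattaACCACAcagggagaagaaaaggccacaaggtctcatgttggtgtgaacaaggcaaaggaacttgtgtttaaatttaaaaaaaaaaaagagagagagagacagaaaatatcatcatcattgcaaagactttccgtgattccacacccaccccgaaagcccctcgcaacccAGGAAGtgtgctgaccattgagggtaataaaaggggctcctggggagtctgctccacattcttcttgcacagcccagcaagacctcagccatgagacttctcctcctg
Each window held 1 match to either motif, at -83 and -34 from the start of Nkg7 and at -227 and -58 from the start of Xcl1. Among 32851 windows of this length, 16.8% held TGTGGT and 35.4% held AGGAAG, so such matches are common and describe the sequence only.

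Genes of receptor assembly and early signalling were nearly all higher in T cells. Of 20 tested against other epidermal cells, 18 were higher in T cells and 1, Cd5, was lower, with a median log2 difference of 8.60. DESeq2, another count model, called 18 higher and 0 lower, so not Cd5. Cd247, the CD3 zeta chain, was at 176, 149, 125, 151 and 329 CPM in T cells, and its 684 UMIs there stood against none in Langerhans lineage cells, which puts it at least 975-fold higher at a floor of 3 UMIs over that class. Lck was at 216, 269, 275, 264 and 248 CPM, close to even across libraries. Zap70 was at 90.2, 88.8, 98.6, 84.2 and 155 CPM, and Lat, the scaffold that Zap70 phosphorylates, at 180, 237, 209, 215 and 459 CPM. Thy1, a surface protein of thymocytes and epidermal T cells, was at 643, 937, 769, 685 and 1663 CPM. As for the Cd3 genes, the Chromium v1 library had the highest value of Cd247, Zap70, Lat and Thy1, but not of Lck.

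Fcer1g, the gamma chain shared by Fc receptors that can stand in for CD3 zeta, was at 1097, 1748, 2706, 2293 and 2285 CPM in T cells. It was higher than in other epidermal cells (log2 difference 8.04, SE 0.15, edgeR adjusted p = 5.32e-26), but Langerhans lineage cells averaged 2050 CPM, slightly above T cells (log2 difference -0.28, SE 0.08, adjusted p = 0.00764). Syk, the kinase that pairs with Fcer1g in myeloid cells, had 0, 4.03, 4.33, 0 and 0 CPM in T cells and was lower than in Langerhans lineage cells (-4.31, SE 0.41). The co-stimulatory receptor Cd27 was at 87.8, 68.6, 49.3, 52.1 and 55.7 CPM. Cd28 was low, at 45.1, 5.38, 12.98, 9.99 and 11.6 CPM, in 48 of the 455 cells. Cd5 or Cd6, surface brakes of most circulating T cells, had a UMI in 7 cells.

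Co-receptors were sparse. Cd4, the co-receptor of helper cells, had a UMI in 2 of 455 T cells. Cd8a had one in 75, with 42 holding at least 2. By library it was found in 7 of 58 cells (12.1%, 95% interval 4.99 to 23.3%), 5 of 80 (6.25%, 2.06 to 13.99%), 24 of 124 (19.4%, 12.8 to 27.4%), 37 of 133 (27.8%, 20.4 to 36.3%) and 2 of 60 (3.33%, 0.406 to 11.5%). The share was highest in the 2 Grhl3-/- libraries. With each cell thinned to 2000 UMIs, so that depth is equal, it was 6.90, 2.50, 7.26, 13.5 and 1.67%, and at most 0.0157% in other epidermal cells. Thinned, Grhl3-/- 1 and WT 1 lay side by side. Cd8b1, the partner of Cd8a in conventional CD8 T cells, was found in 10 cells, 9 of them with Cd8a. Of the 75 cells with Cd8a, 71 had Cd163l1 and 74 had Fcer1g, as most T cells here did.

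**Figure D2:**
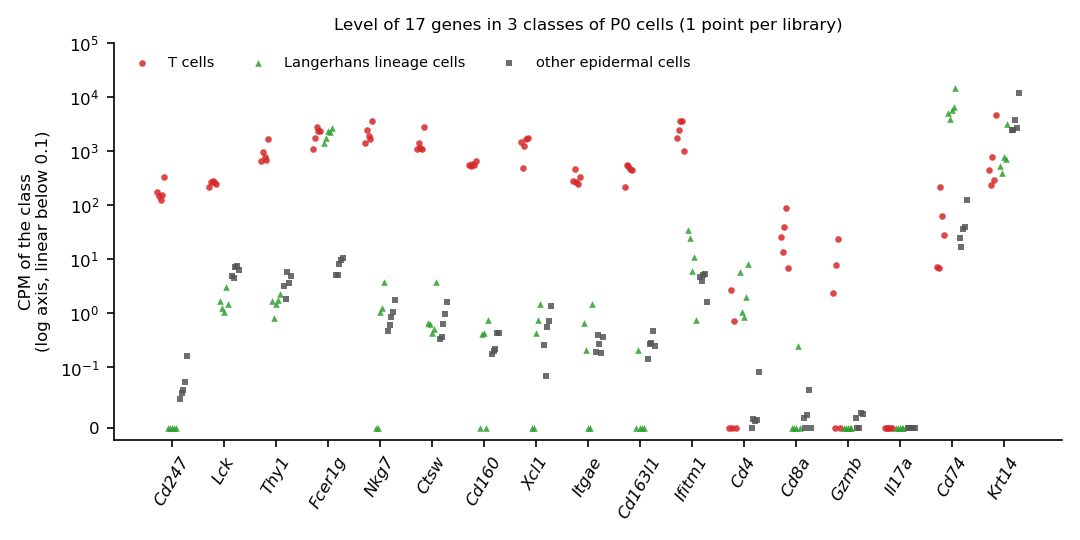
Level in CPM (log axis, linear below 0.1) of 17 genes in T cells, Langerhans lineage cells and other epidermal cells, with 1 point per library. Xcl1, Nkg7, Cd160 and Cd163l1 are high in T cells of every library and near 0 elsewhere, Fcer1g is shared with Langerhans lineage cells, and Il17a is at 0 in T cells.

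Genes of homing and residence followed, with 12 of 14 higher than in other epidermal cells and 1 lower, Cd44 (median 7.79). The 12 include S1pr1, S1pr4, Ccr7 and Klf2, a factor of recirculating T cells, so the count does not stand for residence alone. Itgae and Itgb7, the 2 chains of the integrin that holds T cells to E-cadherin of keratinocytes, were at 278, 453, 269, 244 and 322 CPM and at 226, 412, 312, 285 and 476 CPM. Cxcr6, a chemokine receptor of tissue resident T cells, was at 64.1, 67.2, 63.2, 61.3 and 51.0 CPM, an even level across genotypes and kits. S1pr1, which lets T cells leave tissues, was scarce, with 24 UMIs in 24 cells. Ccr10, a receptor for the skin chemokine CCL27, had 7 UMIs in all and did not pass against other epidermal cells (edgeR adjusted p = 0.176).

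Of the genes tied to killing and natural killer receptors, 15 of 15 were higher in T cells than in other epidermal cells (median 8.96) and 11 of 13 were higher than in Langerhans lineage cells, where Tyrobp and Klrb1b were lower in T cells. Ctsw, a cysteine protease of cytotoxic lymphocytes, was at 1061, 1396, 1136, 1068 and 2770 CPM and was found in 452 cells. Cd160 was at 541, 530, 583, 536 and 656 CPM and Klrd1, the CD94 chain, at 294, 304, 198, 173 and 165 CPM. The granzymes, proteases that kill target cells, were found in few cells. Gzma was found in 4, 9, 16, 15 and 12 cells and reached 9.50, 60.5, 27.7, 203 and 83.5 CPM, and in Grhl3-/- 2 a single cell held 103 of its 285 UMIs. Gzmc was found in 73 cells, Gzmb in 11 and Prf1, the pore former perforin, in 5. Thus Nkg7 and Ctsw were found in nearly all cells, and Prf1 and Gzmb in few.

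The type 17 list gave a mixed picture. Of 7 genes tested against other epidermal cells, 2 were higher in T cells, Cd163l1 and Ccr2, and 4 were lower, among them Il1r1, Sox13 and Zbtb16 (median -1.36). Cd163l1, a scavenger receptor of gamma delta T cells, was at 218, 553, 528, 460 and 438 CPM in T cells and was found in 410 cells. It had 1947 UMIs in T cells and 1 in Langerhans lineage cells (edgeR adjusted p = 7.31e-14). Il17a, Il23r and Blk had no UMI in any of the 455 T cells, which allows a share of cells with a UMI of up to 0.659%, and Il17f had 3. At least 2 of the 13 listed genes were found in 16, 28, 31, 37 and 6 cells, 118 in all. The mean share was 26.4% in Grhl3-/- and 31.3% in WT, a difference of -4.88 points (two-sided exact permutation test, p = 0.667). Thinned to 2000 UMIs the shares fell to 3.45, 5, 4.84, 7.52 and 3.33% in T cells against 4.22, 4.01, 1.63, 1.38 and 0.246% in other epidermal cells, and the genotype difference turned to 1.96 points (exact permutation p = 0.667). In the WT v2 libraries the thinned share was thus at the level of cells that are not T cells.

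Among secreted factors, 10 of 15 were higher than in other epidermal cells and 1, Areg, was lower (median 1.69). DESeq2 called 10 higher and 0 lower, so not Areg. Ltb, lymphotoxin beta, was at 138, 198, 150, 156 and 88.1 CPM and Lta at 16.6, 18.8, 25.1, 49.2 and 23.2 CPM. Il13 was found in 58 cells, at 7.12, 21.5, 15.6, 12.1 and 30.2 CPM. Il2 was at 4.75, 14.8, 9.52 and 8.56 CPM in the v2 libraries and at 109 CPM in the Chromium v1 library, with 29 of its 60 cells positive. Ifng had 22 UMIs in 18 cells. Fgf7, Fgf10 and Igf1, growth factors known from epidermal T cells of adult mice, had 0, 0 and 1 UMIs, and Il22 had none, so Fgf7, Fgf10 and Il22 were not detectable at this depth. Ccl1, the ligand of CCR8, came from very few cells, with 161 UMIs in 5 cells of WT 1, 167 in 1 cell of WT 2 and 3 in 1 cell of the Chromium v1 library.

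Of the cytokine receptors 9 of 15 were higher and 1 was lower. Il2rb, the beta chain for IL-2 and IL-15, was at 178, 145, 110, 110 and 158 CPM. Il2ra, which makes the receptor high in affinity for IL-2, had 8 UMIs. Il7r was at 16.6, 47.1, 13.8, 13.6 and 0 CPM. Tnfrsf9, the activation receptor 4-1BB, was at 223, 65.9, 34.6, 34.2 and 144 CPM, higher in each WT library than in both Grhl3-/- libraries. Of 21 transcription factors tested, 13 were higher than in other epidermal cells and 7 were lower (median 2.63). Runx3, which epidermal T cells need, was at 266, 434, 314, 210 and 118 CPM, and did not differ past the threshold from Langerhans lineage cells (log2 difference 0.23, edgeR adjusted p = 0.214). Ikzf2 was at 271, 229, 240, 241 and 48.7 CPM. Tcf7, a factor of T cell identity, was at 123, 141, 108, 78.5 and 44.1 CPM, and Foxp3 of regulatory T cells had no UMI. For Runx3, Ikzf2 and Tcf7 the Chromium v1 library was the lowest.

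Cell cycle transcripts were frequent in T cells. At least 3 of the 13 cell cycle genes in the files were detected in 40, 49, 84, 91 and 36 cells, 300 of 455, with means of 68.1% in Grhl3-/- and 65.1% in WT (difference 2.97 points, two-sided exact permutation test, p = 1). Thinned to 2000 UMIs, the shares were 53.5, 40.0, 43.6, 48.9 and 41.7% in T cells against 38.1, 30.5, 44.1, 47.0 and 35.4% in other epidermal cells, and the difference between genotypes turned to -0.514 points (exact permutation p = 1). Mki67 was at 188, 147, 138, 126 and 65.0 CPM, with a log2 difference of 0.35 (SE 0.13, edgeR adjusted p = 0.0294) from other epidermal cells and 1.04 (SE 0.13, adjusted p = 1.53e-05) from Langerhans lineage cells. All 13 cell cycle genes tested were higher in T cells than in Langerhans lineage cells (median 1.22), and 9 of 13 were higher than in other epidermal cells (median 0.53). A cell with cell cycle transcripts was not otherwise shown to divide.

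Interferon response genes separated T cells from Langerhans lineage cells. Of 13 tested, 11 were lower in T cells, with a median log2 difference of -3.44, and 1 was higher. The exception was Ifitm1, a membrane protein that blocks virus entry, at 1719, 2382, 3518, 3500 and 1014 CPM in T cells against a mean of 15.2 CPM in Langerhans lineage cells (log2 difference 7.17, SE 0.41, edgeR adjusted p = 4.18e-09) and 4.12 CPM in other epidermal cells (9.19, SE 0.15, adjusted p = 1.04e-26).

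Keratinocyte and Langerhans genes were lower in T cells. All 14 keratinocyte genes were lower than in other epidermal cells (median -2.21), and the 10 largest falls among genes with a mean log2 CPM of 5 or more and no overlap between the classes included those of Ccer2 (-4.54, SE 0.16), Ndufa4l2, Plek2, Tfap2c, Tgfb2, Rab38, Ptrf, Sox21 and Fabp5, down to -2.58. Tfap2c is a transcription factor of keratinocytes. All 13 Langerhans and macrophage genes were lower than in Langerhans lineage cells (median -6.99). Clec4a3, Olfml3, Cd33, Mgl2, Lrrc25, Mrc1, Dcstamp and Ocstamp had no UMI in T cells and were at least 78.0-fold (Dcstamp) to 194-fold (Clec4a3) lower at a floor of 3 UMIs over all T cells. Ms4a6c had 2 UMIs in T cells against 9652, and Pld4 1 against 4574. Transcripts of other types were still present in T cell barcodes: the 14 keratinocyte genes summed to 3772, 7385, 4996, 2724 and 15007 CPM, against 16372 to 51961 CPM in other epidermal cells, and the 6 melanocyte genes to 909, 178, 835, 1613 and 99.7 CPM.

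Most T cells shared detection of the genes high in the class, which does not show that their levels were alike. Of 8 genes high in the class, Nkg7, Ctsw, Xcl1, Fcer1g, Cd163l1, Cd160, Thy1 and Itgae, chosen after their values were seen, 318 cells had all 8, 440 had at least 6 and 4 had 2 or fewer. The spread from cell to cell was read as variance over mean of counts thinned to 2000 UMIs per cell, and the median over 1681 genes and the 5 libraries was 1.05. Ifitm1 stood at 4.87 to 11 over the libraries, Xcl1 at 2.59 to 10.2, the chromatin protein gene Hmgb2 at 3.08 to 4.31 and Cd3g at 2.19 to 5.45. Xcl1 was uneven and had a UMI in 50, 57, 115, 119 and 50 cells. The median T cell held 6.00, 2.42, 9.65, 12.3 and 9.10 Xcl1 UMIs per 10000, and the highest cell 105, 59.2, 96.6, 161 and 171. Thinned, 60.3, 35, 76.6, 76.7 and 63.3% of T cells had a UMI of Xcl1, against 0.034 to 0.170% of other epidermal cells, whose median depth before thinning was 7626 to 10232 UMIs against 6069 to 8179 for T cells. Fcer1g was more even, with medians of 11.4, 18.3, 30.4, 28.9 and 27.2 per 10000 UMIs.

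**Figure D3:**
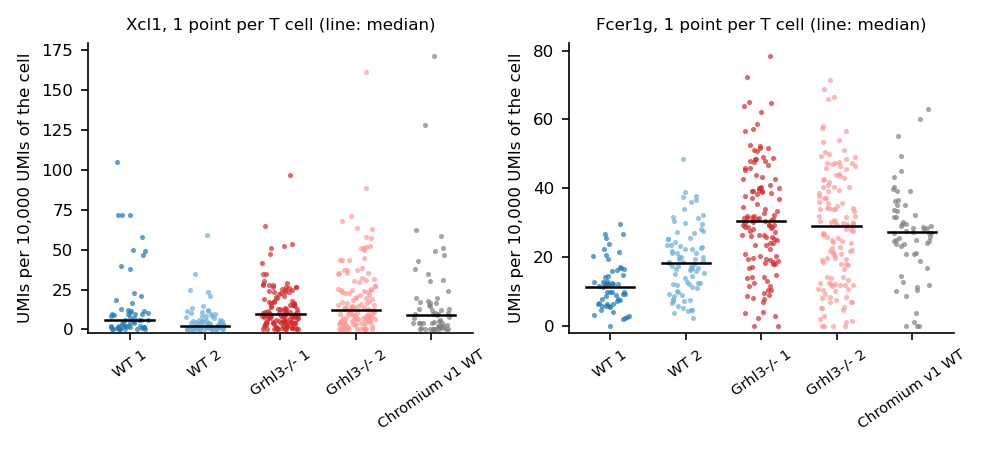
Xcl1 and Fcer1g in single T cells, as UMIs per 10000 UMIs of the cell, by library; lines are medians. Xcl1 runs from 0 to 171 with a low median of 2.42 in WT 2, and Fcer1g has medians of 11.4 and 18.3 in WT 1 and WT 2 and 27.2 to 30.4 in the other libraries.

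The next comparison asked which transcripts of T cells differed with the loss of Grhl3. UMIs summed over T cells were compared between the 2 Grhl3-/- and 2 WT v2 libraries. Of 7496 genes tested, 49 passed (0.654%), 18 higher in Grhl3-/- (0.240%) and 31 lower (0.414%), by edgeR with adjustment over all genes, and all 49 had no overlap between the genotypes in these 4 libraries, as did 48.0% of all genes tested (19.9% higher and 28.1% lower in Grhl3-/-). With the Chromium v1 library added to WT, 1 gene, Gm8730, passed, while changes such as those of Ctla2a (-2.92), Ctla2b (-2.50), Rgcc (-1.88) and Lmna (-1.71) were as large as before or nearly so and those of others, such as Fdps (0.43), were not. None of these 5 passed in that fit. Changes with unadjusted p under 0.05 numbered 1182, and the median change over all genes was -0.01 (log2). With DESeq2, another count model, 56 genes passed, 40 of the 49 among them.

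Among the genes that fell, those read for a lymphocyte role included Ctla2a, Ctla2b, Klrb1a, Cx3cr1, Klf2, Ets1, Rgcc, Pdcd4 and Lpar6. Apart from Ctla2b, which the rule for named genes gave, they were chosen after their values were seen, and their grouping is no test of a pathway. Ctla2a and Ctla2b encode small proteins akin to the inhibitory propeptide of cathepsins. Ctla2a was at 418 and 1033 CPM in WT 1 and WT 2, 119 and 141 CPM in Grhl3-/- 1 and Grhl3-/- 2, and 1714 CPM in the Chromium v1 library, and it fell by 2.42 on the log2 scale (SE 0.35, edgeR adjusted p = 0.0233). Ctla2b was at 173, 359, 47.6, 39.2 and 241 CPM and fell by 2.59 (SE 0.32, adjusted p = 0.0157). In both genes each of the 3 WT libraries lay above both Grhl3-/- libraries. They are neighbours, and their start regions are shown because these are alike. Start regions do not show whether reads of the pair can be told apart, which was not tested. Langerhans lineage cells held Ctla2b at 9.12 to 24.5 CPM and Ctla2a at 0 to 1.49 CPM. RefSeq places both on the minus strand of GRCm38.p6, with the first of 2 listed windows of Ctla2a at chr13:60936576-60936875 and the window of Ctla2b at chr13:60897398-60897697, and capitals mark AGGAAG on either strand.
Ctla2a: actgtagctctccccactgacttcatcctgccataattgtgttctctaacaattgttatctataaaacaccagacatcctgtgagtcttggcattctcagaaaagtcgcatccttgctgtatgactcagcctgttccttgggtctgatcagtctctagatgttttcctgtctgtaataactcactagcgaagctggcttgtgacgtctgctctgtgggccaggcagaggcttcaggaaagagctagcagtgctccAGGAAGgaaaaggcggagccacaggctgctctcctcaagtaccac
Ctla2b: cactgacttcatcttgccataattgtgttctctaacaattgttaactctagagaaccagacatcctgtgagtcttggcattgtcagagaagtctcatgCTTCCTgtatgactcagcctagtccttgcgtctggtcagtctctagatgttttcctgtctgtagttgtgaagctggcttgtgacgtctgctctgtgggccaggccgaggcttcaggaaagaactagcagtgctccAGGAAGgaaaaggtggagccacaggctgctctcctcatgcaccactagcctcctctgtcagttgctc
Over 288 aligned positions the windows shared 258 bases (89.6%), and the starts lie 39178 bases apart. AGGAAG was found once in Ctla2a, at 5 bases after the start, and in Ctla2b at -152 and -17. The match near the start is common to both.

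Klf2, a factor that keeps T cells quiescent and recirculating, was at 85.5, 91.4, 26.0, 19.97 and 32.5 CPM and fell by 1.89 (SE 0.26, edgeR adjusted p = 0.0196). Ets1, a factor of lymphocyte development, was at 147, 105, 44.1, 47.1 and 46.4 CPM and fell by 1.38 (SE 0.24, adjusted p = 0.0482). In both, the Chromium v1 WT library lay close to the Grhl3-/- libraries. Cx3cr1, the fractalkine receptor, was at 332, 278, 141, 143 and 60.3 CPM and fell by 1.04 (SE 0.17, adjusted p = 0.0426), again with the Chromium v1 library below all others. Klrb1a, an NK receptor gene, was at 61.7, 39.0, 12.1, 7.13 and 25.5 CPM. Rgcc, a cell cycle regulator, was at 404, 441, 120, 105 and 469 CPM and fell by 1.85 (SE 0.17, adjusted p = 0.00325), and here all 3 WT libraries were high. Lmna, which encodes the nuclear lamins A and C, did likewise, at 1232, 1343, 450, 490 and 2347 CPM. Pdcd4, a translation inhibitor, was at 290, 192, 71.8, 54.2 and 13.9 CPM, and the hexokinase gene Hk2 at 199, 190, 62.3, 45.7 and 18.6 CPM, both lowest in the Chromium v1 library. Other epidermal cells held Pdcd4 at 315, 168.5, 98.4, 72.5 and 20.3 CPM, about the level in T cells.

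Among the genes that rose, chosen beyond the named ones after their values were seen, Ifitm1 gained 0.84 (SE 0.14, edgeR adjusted p = 0.0447) and Ifitm3, at 66.5, 68.6, 157, 171 and 104 CPM, gained 1.34 (SE 0.19, adjusted p = 0.0206). Both belong to the interferon list, of which 2 of 8 tested genes rose, none fell and the median change was 0.70. Rgs1, a brake on chemokine receptor signals, was at 586, 577, 1206, 1020 and 540 CPM and rose by 0.997 (adjusted p = 0.0217). The chaperones of the endoplasmic reticulum Calr (297, 461, 776, 987 and 830 CPM) and Hsp90b1 (266, 350, 607, 713 and 362 CPM) rose by 1.27 and 1.15, with the Chromium v1 library among the Grhl3-/- values for Calr and close to the WT values for Hsp90b1. Hmgcs1 and Fdps, enzymes of cholesterol synthesis, rose by 1.24 and 1.29, but Fdps, at 66.5, 86.1, 201, 163 and 285 CPM, was highest in the Chromium v1 WT library. DESeq2 called Fdps (adjusted p = 0.0161) but not Hmgcs1 (adjusted p = 0.0688). The glycolytic enzymes Tpi1, Pgam1 and Ldha rose by 1.32, 1.21 and 1.05, while Hk2 of the same pathway fell by 1.79. Ldha was at 677, 765, 1413, 1456 and 1605 CPM. Jun was at 171, 129, 353, 438 and 334 CPM and rose by 1.48 (edgeR adjusted p = 0.0196). Of 13 tested genes of the dissociation stress list, it alone rose past the threshold and none fell. At unadjusted p under 0.05, 7 of the 13 were higher and none lower, beside 1182 of all 7496 genes tested in either direction.

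**Figure D4:**
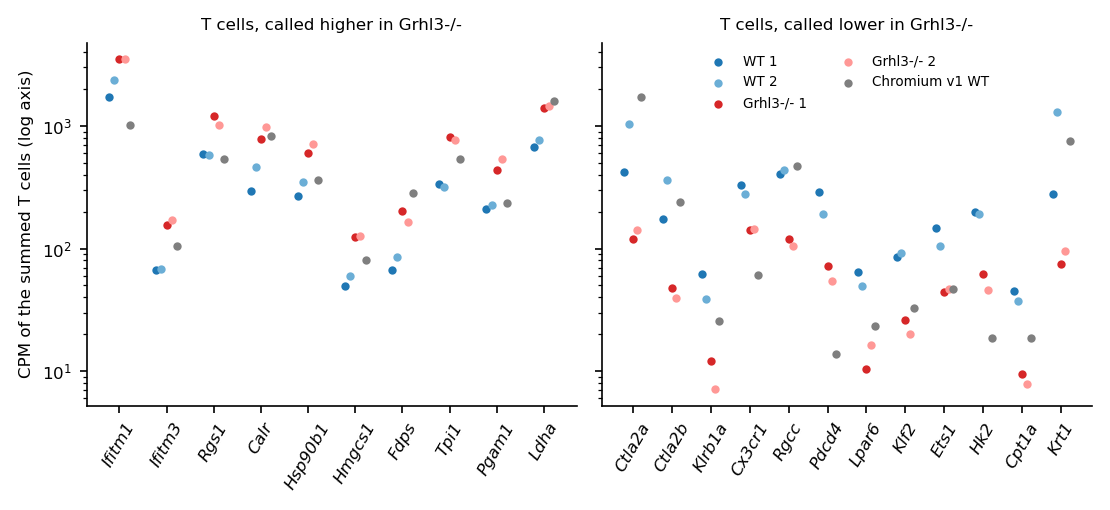
Level in CPM (log axis) in T cells of each of the 5 libraries for 10 genes that rose and 12 that fell in Grhl3-/- against the 2 WT v2 libraries; points are libraries. For Ctla2a, Ctla2b and Rgcc the Chromium v1 WT library lies with WT 1 and WT 2, and for Ets1, Klf2, Hk2 and Ldha it lies with the Grhl3-/- libraries or beyond them.

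Several of the largest changes were in genes found in few T cells or known from other cell types. Gm8730 was at 161, 210, 1267, 1168 and 97.4 CPM and rose by 2.76 (SE 0.17, edgeR adjusted p = 0.000179). It is a gene model at chr8:102864845-102865798 (GRCm38) with near-identical copies, so its counts are uncertain, and it rose by 2.67 in other epidermal cells too. Cd74, the invariant chain of MHC class II, was at 7.12, 6.72, 215, 61.3 and 27.8 CPM and rose by 4.35 (SE 0.77, adjusted p = 0.0482). Of its 248 UMIs in Grhl3-/- 1, 163 lay in 1 cell, and of 86 in Grhl3-/- 2, 69 lay in 1 cell. Ptgds rose by 1.87 and Dcn, a proteoglycan gene, by 1.76. Dcn was at 42.7, 24.2, 104 and 103 CPM in the v2 libraries but at 146 CPM in the Chromium v1 WT library, with a change of 0.69 (edgeR adjusted p = 0.870) when that library was added, and other epidermal cells held 355 to 595 CPM. Ccl1 fell (adjusted p = 0.000179) from the few WT cells named above to 1 and 0 UMIs in Grhl3-/- 1 and Grhl3-/- 2, and the Chromium v1 WT library held 3 UMIs of it, or 6.96 CPM, in 1 cell. Tppp3, Krt1 and Lypd3 fell by 3.89, 3.17 and 2.45, and Krt1, the keratin of spinous cells, was at 278, 1299, 74.4, 94.9 and 752 CPM. In other epidermal cells these 3 changed by -3.60, -2.01 and -1.45, each past the threshold. The difference between classes passed for Krt1 but not for Tppp3 (edgeR adjusted p = 0.94) or Lypd3 (edgeR adjusted p = 0.102). Of the 14 keratinocyte genes, 2 fell in T cells (Dsp and Krt1) and 12 did not pass, with a median change of -0.52. At unadjusted p under 0.05, 6 of the 14 were lower and 1 was higher, beside 1182 of all 7496 genes tested. Without WT 2, Krt1 fell by 1.64 (edgeR adjusted p = 0.000224), while Tppp3 at -2.64 (adjusted p = 0.0664) and Lypd3 at -1.52 (adjusted p = 0.124) did not pass.

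Barcodes with signs of mixing were marked by limits set within each library, so the shares marked are not levels on one scale, and their difference between genotypes was not tested. A high doublet score, the top 5% of a library, marked 4, 8, 19, 23 and 2 T cells (6.90, 10.0, 15.3, 17.3 and 3.33%). A share of keratinocyte, melanocyte and Langerhans transcripts over 3 times the median of that library's T cells (a median of 18.9, 13.3, 10.9, 10.3 and 45.2 per 10000 UMIs, lowest in the Grhl3-/- libraries) marked 11, 12, 25, 31 and 6 (19.0, 15, 20.2, 23.3 and 10.0%), and these cells had a higher median of 7571 to 17541 UMIs against 5826 to 7950 for the rest. The Langerhans and macrophage list summed to 97.3, 149, 638, 228 and 218 CPM in T cells, against 20673 to 48092 CPM in Langerhans lineage cells. Over all libraries 85 cells were so marked, those of the Chromium v1 library lying outside the genotype test. With the marked cells left out, 218 genes passed (99 higher, 119 lower), 40 of the 49 among them. Cd74, itself on the Langerhans list that marked cells, and Dcn then had too few counts to be tested, and Ptgds changed by 0.19 (edgeR adjusted p = 0.916). Krt1, on the keratinocyte list, fell by 1.37. Gm8730 still rose by 2.68, and Tppp3 fell by 3.91, but both changed in the same direction in other epidermal cells. Likewise Ctla2a fell by 2.30, Ets1 by 1.48, Klf2 by 1.72 and Cx3cr1 by 1.12, and Ifitm1 rose by 1.03, each past the threshold. Without the cells of high doublet score, 56 over all libraries with the Chromium v1 library counted, 68 genes passed, 39 of the 49 among them.

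The listed genes of the class were read between genotypes beside the 0.654% of all genes that passed, and with lists this short a count of 0 or 1 is not set apart from that share. Counts at unadjusted p under 0.05 are read beside the 1182 of all 7496 genes tested that met that limit. In receptor assembly and signalling 0 of 18 genes passed by edgeR (3 had unadjusted p under 0.05, and DESeq2, another count model, called Fcer1g), with a median change of -0.07. Fcer1g changed by 0.87 (SE 0.19, adjusted p = 0.0932). In killing and NK receptors 0 of 11 passed (6 with unadjusted p under 0.05, of them 5 lower, and none by DESeq2), with Nkg7 at -0.08 (SE 0.21, adjusted p = 0.903) and Klrk1, the activating receptor NKG2D, at -1.88 (SE 0.36, adjusted p = 0.0626). In homing and residence 1 of 9 fell, Klf2, and 4 of 9 had unadjusted p under 0.05, all lower (median -0.50). In cytokines 0 of 5 passed (1 with unadjusted p under 0.05, none by DESeq2), and Xcl1 changed by 0.63 (SE 0.40, adjusted p = 0.480). In cytokine receptors 0 of 10 passed, 6 had unadjusted p under 0.05, all lower, and DESeq2 called Tnfrsf9 (median -0.80). Among transcription factors 1 of 19 fell, Ets1 (median -0.23), and in the cell cycle list 0 of 13 passed (3 with unadjusted p under 0.05, none by DESeq2). The type 17 list had 0 of 3 by edgeR, by DESeq2 and at unadjusted p under 0.05. Cd8a changed by 1.88 (SE 0.49, adjusted p = 0.124). Of 80 ribosomal protein genes 1 fell, Rps28, while 20 had a higher and 10 a lower level at unadjusted p under 0.05, and DESeq2 called 3, all lower.

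Lastly, the change with genotype in T cells was set against that in other epidermal cells of the same libraries, where 3909 of 15112 genes passed (25.9%). The difference of the 2 changes passed in 379 of 14573 genes (2.60%), 183 higher in T cells (1.26%) and 196 lower (1.34%) by edgeR, with 1578 genes at unadjusted p under 0.05. Each library gave both classes, so small p-values of this difference rest on no more than the same 2 libraries per genotype. DESeq2 called the difference in 107 genes. Of the 49 genes called in T cells, 45 could be tested in other epidermal cells and 20 changed differently there. By their own test in other epidermal cells 33 of the 45 passed (25.9% of all genes did), 32 of them in the direction seen in T cells. Among these, Klf2 fell by 1.31, Pdcd4 by 1.40 and Hk2 by 1.41 in other epidermal cells, and Tpi1 and Fdps rose by 1.69 and 1.58. Cx3cr1 fell in T cells and changed by 0.62 in other epidermal cells (adjusted p = 0.399), a difference of -1.68 (adjusted p = 4.01e-08), but from a low level there of 1.66 to 6.13 CPM in the v2 libraries. Ets1 changed by -0.16 there (edgeR adjusted p = 0.556), a difference of -1.11 (edgeR adjusted p = 0.0229) that DESeq2 did not call. Nrgn, a calmodulin binding protein gene, fell by 1.84 in T cells and rose by 1.56 in other epidermal cells, a difference of -3.34 (adjusted p = 1.4e-10), but its level in other epidermal cells was at most 1.04 CPM, a trace. By edgeR, Ifitm1 and Ifitm3 rose more in T cells, by 0.56 (adjusted p = 0.000975) and 0.77 (adjusted p = 0.0109). Ifitm1 was at only 3.88 to 5.39 CPM in other epidermal cells, and DESeq2 called none of the 10 interferon genes tested for this difference. Ldha rose in both and less in T cells, by a difference of -0.54 (adjusted p = 0.00113).

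For Nkg7 and Xcl1 the level in other epidermal cells is near 0, so such differences compare T cells with trace counts. By this test Id2, a factor of innate and cytotoxic lymphocytes, differed by -1.23 (edgeR adjusted p = 7.78e-12), Nkg7 by -0.91 (adjusted p = 0.000646) and Xcl1 by -1.23 (adjusted p = 0.00481), without a change past the threshold in T cells themselves. DESeq2 called the difference of Id2 but not those of Nkg7 and Xcl1. Of 13 cell cycle genes, 7 were lower by this difference and none higher (median -0.58), while 8 of the 13 rose in other epidermal cells and none passed in T cells. For the difference DESeq2 called 2 of 13 lower, Top2a and Rrm2. Markers of other cell types also differed by this test. Of 6 melanocyte genes 5 were higher in T cells by the difference (Tyrp1, Tyr, Pmel, Dct and Mlana, median 1.99, none by DESeq2). In T cells themselves 0 of 6 passed by edgeR or DESeq2. There 4 of the 6 had unadjusted p under 0.05, all higher, beside 1182 of all 7496 genes tested. Of 15 Langerhans and macrophage genes 4 were higher by the difference (H2-Ab1, H2-Aa, H2-Eb1 and Cd74, median over the 15 of 2.36), and DESeq2 called H2-Ab1 and Cd74. The part of such transcripts in the other differences was not tested. The plot of changes in both classes shows the genes called in T cells.

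**Figure D5:**
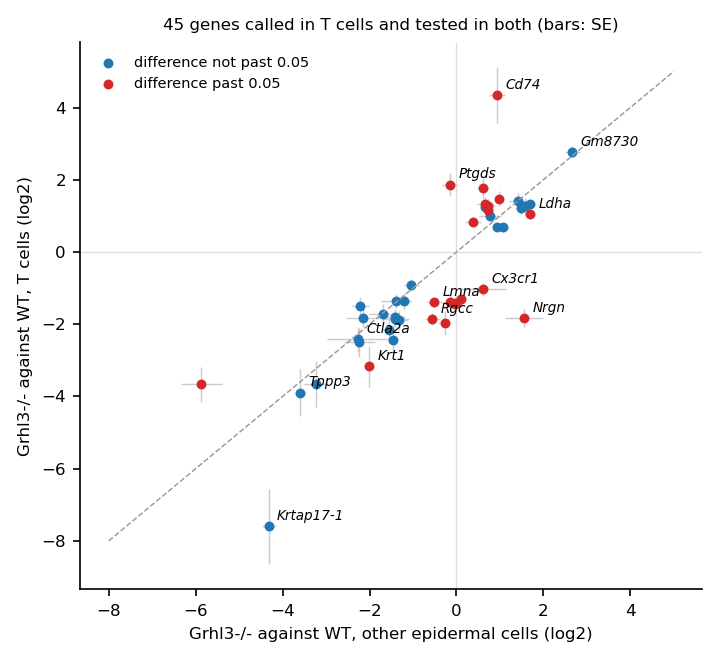
Change in Grhl3-/- against WT (log2) of the 45 genes called in T cells and tested in both classes, with other epidermal cells on the x axis, T cells on the y axis and bars for standard errors; the dashed line marks equal change. The 20 genes in red differ between classes past an adjusted p of 0.05 by edgeR, among them Cx3cr1, Nrgn, Ets1 and Ifitm1. DESeq2 called this difference for neither Ets1 nor Ifitm1.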

How the data were processed

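Single-cell libraries (10x Genomics Chromium) of back skin were made by the authors, who aligned reads to mm10 and counted UMIs with Cell Ranger (version 1.3.1 in the submitters' processing notes); the deposited matrices hold raw counts of UMIs per gene and barcode, with no normalization. From these, cells were kept and classed by the limits given above. The members and gene lists were chosen with earlier results of these data known. Counts summed per library and class were tested with edgeR 4.0.16 (R 4.3.3, limma 3.58.1; quasi-likelihood test, its expression filter, TMM, Benjamini-Hochberg adjustment over all genes tested, threshold 0.05) after checks on simulated counts. Shares were compared by exact permutation, where 2 libraries against 2 cannot give a two-sided p under 0.3333. Doublets were scored with Scrublet in scanpy 1.11.5 (Python 3.11.15) and not removed, except as an alternative. Free RNA was not removed.

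Named genes were the 10 largest changes per direction between classes, or 5 between genotypes, taken from genes past the threshold whose groups did not overlap (for the difference of changes, in log2(CPM + 1) of T cells minus other epidermal cells) and whose mean log2 CPM was 5 or more, leaving out genes the rule used, mitochondrial, Xist, Tsix and Y-linked genes. Listed genes were read too. Depth was 3873 to 66169 UMIs per T cell. Alternatives were DESeq2 1.42.0, RLE scaling, no filter, equal UMIs, other Cd3, gene, mitochondrial and C1q limits, thinning, doublet removal, a replicate block, added and left-out libraries and, chosen after seeing the data, removal of mixed cells and crossed numbers. Same-numbered libraries did not deviate together (correlation -0.118 over 7496 genes). The Chromium v1 library has no replicate and entered genotype tests only as an alternative. Of 277 listed genes 21 were not analysed here, among them 20 T cell receptor genes, so the share of cells with Trdc was not computed. A few items withheld for evaluation are not reported here. Sequences are from RefSeq (GRCm38.p6). Gene places are from a GRCm38 annotation.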

Additional observations from a re-analysis of the deposited data

Results flagged for a closer look

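For 10 genes the change with genotype in T cells differed from that in other epidermal cells by a test of the difference itself (edgeR interaction term). They are the 5 largest in each direction among those of the 379 of 14573 genes past the threshold that had a mean log2 CPM of 5 or more and no overlap between genotypes in the difference of log2(CPM + 1) between T cells and other epidermal cells. Genes below that level could differ by more, as Nrgn did. In Klk7 the genotypes overlapped when the plain ratio of CPM was read instead. In 5 the change was higher in T cells. Klk7, a protease of the cornified layer, differed by 3.89 (log2), after a fall of 2.89 in other epidermal cells, and was at 7.12, 2.69, 15.6, 0.713 and 9.28 CPM in T cells, with 12 of 18 UMIs of Grhl3-/- 1 in 1 cell. Cd74 differed by 3.36 and Chst2, a sulfotransferase gene, by 3.00. Tnfrsf19, a receptor of epidermal progenitors, differed by 2.69, with a change in T cells of 2.89 (adjusted p = 0.0652). Pax3, a factor of melanocyte precursors, differed by 2.66, with a change in T cells of 2.23 (adjusted p = 0.0937). With mixed cells left out none of the 5 passed, but the differences of Klk7 (3.86, adjusted p = 0.323), Tnfrsf19 (2.56, adjusted p = 0.444) and Pax3 (1.99, adjusted p = 0.856) kept their direction, as did that of Chst2 (adjusted p = 0.755). Cd74 is on the Langerhans list by which those cells were picked, so its value there, -0.28, is no independent check.

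In the other 5 the change was lower in T cells, and each rose in other epidermal cells past the threshold without a change past it in T cells. Gadd45b, a stress gene, differed by -2.33, with a change of -0.72 in T cells and 1.73 in other epidermal cells. Odc1, which makes polyamines, differed by -1.97, with changes of 0.29 and 2.44. Limd2 differed by -1.46 (changes of -0.45 and 1.13), Sept11, a septin of the cytoskeleton, by -1.44 (-0.997 and 0.54), and Ppa1, a pyrophosphatase, by -1.34 (-0.21 and 1.26).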

How the results depend on the processing

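The genotype difference in T cells is limited by 2 libraries per group, by 58 to 133 T cells per library and by cells that hold transcripts of other types. The direction of the 0.554 point difference in T cell share held under all alternatives run, at 0.380 to 0.598, with the replicate block at 0.554 (exact permutation p = 0.5), with the Chromium v1 library added at 0.504 (p = 0.1) and without each library at 0.318 (Grhl3-/- 2) to 0.790 (Grhl3-/- 1). The type 17 difference of -4.88 points turned to 1.96 when thinned and to 2.21 with the Chromium v1 library added, and ranged from -8.59 to -1.18 without each library. The cell cycle difference of 2.97 points turned to -0.514 when thinned and ranged from -0.884 (without WT 2) to 6.83. The replicate block left both at -4.88 and 2.97 (exact permutation p = 0.5 and 1). The share of cells with Trdc was not run.

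The 49 genotype calls in T cells became 499 with no filter on low counts (265 higher, 234 lower), 218 without mixed cells, 1 with the Chromium v1 library added, and 129 (without Grhl3-/- 2) to 394 (without WT 1) without each library, where the lone library of an arm is assumed to vary like the others. Without WT 2 it was 328 and without Grhl3-/- 1 it was 236, and 43 to 48 of the 49 were among them. With the replicate block 325 genes passed, all 49 among them, but the numbers only name the libraries. With the numbers crossed it was 396. Against other epidermal cells 6371 calls became 2896 at equal UMIs, 4148 without the replicate block of libraries, and 5105 to 5890 without each library. Against Langerhans lineage cells 4340 became 2530, 2499 and 3601 to 4367. The 379 differences between classes became 107 by DESeq2, 207 without doublets, 280 without mixed cells and 131 (without Grhl3-/- 2) to 311 without each library, with 213 without Grhl3-/- 1 and 238 without WT 2. The causes were not tested. RLE scaling moved medians by at most 0.0614.

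Named genes kept their direction and call in 260 of 260 values against other epidermal cells and in 259 of 259 against Langerhans lineage cells. Between genotypes 119 of 136 values did, and 17 lost the call: all but Gm8730 with the Chromium v1 library added, Ptgds without doublets or mixed cells, Dcn without doublets or at equal UMIs, Krt1 by DESeq2, Tppp3 without WT 2 (adjusted p = 0.0664) and Lypd3 without WT 2 or at equal UMIs. Of 90 values of the differences between classes 74 were kept, 15 lost the call and 1, Cd74 without mixed cells, turned to -0.28.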

Other observations

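Before birth, cells that met the same Cd3 and C1q limits were nearly absent from the whole skin libraries, at 9 cells over 8 libraries with 600 to 4800 genes per cell. At E14.5 there was 1 of 5267 kept cells in WT 1 and 1 of 6106 in Grhl3-/- 1. At E16.5 there were 4 of 5432 in Grhl3-/- 1 (0.0736%, exact 95% interval 0.0201 to 0.188%) and 3 of 6494 in Grhl3-/- 2 (0.0462%, 0.00953 to 0.135%). The other 4 libraries had none, which allows a share of up to 0.0345 to 0.0499% by a limit of 3 counts, or 0.0424 to 0.0613% by the exact 95% interval. The cell of E14.5 WT 1 held 12 UMIs of Nkg7 and 11 of Fcer1g, the cell of E14.5 Grhl3-/- 1 held 2 and 0, the 4 cells of E16.5 Grhl3-/- 1 held 23 and 43, and the 3 cells of E16.5 Grhl3-/- 2 held 14 and 0, with 15 UMIs of Cd163l1. These libraries hold dermis as well, so their shares are not on the scale of those at P0.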
